A study of Mus musculus with 200 samples.

Results

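The genes described here are 10 calcium pumps and calcium release channels of the mouse brain: Atp2c1, Atp2a2, Atp2b1, Atp2b2, Atp2b3, Atp2b4, Itpr1, Itpr2, Ryr2 and Ryr3. They were taken by gene symbol and are 10 of the 56941 genes counted. They were chosen on the C57BL/6J mice sampled at 9 h, where Atp2c1 was the 11th gene by p-value of 16967 tested, so the values of that comparison are given as a description and the tests rest on the other strains and times. The 10 genes and the lists of other genes below were chosen with earlier results of these data known. The tests may therefore not be fully independent of that choice. All 10 passed the filter on low counts in every comparison.

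RNA of one hemisphere per mouse was sequenced in bulk from 200 mice, of which 67 had sham surgery and the rest a closed head injury (CHI), a single impact on the intact head under anaesthesia. Tissue was taken 9, 24 or 72 h after surgery. The mice were 61 C57BL/6J mice, 55 mice labelled IL-1R1 gKO, 50 labelled IL-1R1 eRestore and 34 labelled IL-1R1 nRestore, aged 3.3 to 7.67 months, with males and females in each group except the nRestore mice at 72 h, which were all male. At 9 h, CHI and sham mice numbered 15 and 6 (C57BL/6J), 13 and 6 (gKO), 12 and 6 (eRestore) and 6 and 4 (nRestore). At 24 h they numbered 14 and 6, 12 and 6, 9 and 5, and 8 and 5 in the same order of strains, and at 72 h 14 and 6, 12 and 6, 12 and 6, and 6 and 5. How the IL-1R1 alleles were made, and which promoter or recombinase restores the receptor, is not given in the sources used here. The mice labelled gKO had an Il1r1 level of 2.39 to 7.86 TPM, not below the 1.00 to 4.77 TPM of C57BL/6J mice, so the gene-level value does not check the label.

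Calcium in a neuron or glial cell is kept low in the cytosol and high in the endoplasmic reticulum and Golgi. Secretory pathway pumps (SPCA) load the Golgi with calcium and manganese, the sarco/endoplasmic reticulum pump (SERCA) loads the endoplasmic reticulum, and plasma membrane pumps (PMCA) move calcium out of the cell. Inositol trisphosphate receptors and ryanodine receptors are the channels that let the stored calcium back into the cytosol, the first after G protein signalling and the second chiefly after calcium entry. In the brain these proteins shape the calcium signals that follow synaptic activity.

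Levels are given in TPM, the unit that scales reads by transcript length and library size, so that they can be compared between genes. Fold changes are on the log2 scale, CHI over sham, from a fit to the estimated counts with sex and age as covariates. A change is called at a Benjamini-Hochberg adjusted p under 0.05 in the edgeR quasi-likelihood test over all genes tested. The libraries held 14857985 to 57355676 estimated counts, with a median of 20258936. Of the neuronal markers, summed levels were 4584 to 9116 TPM over the 200 mice. The libraries differed in regional markers: 6 genes of striatal medium spiny neurons summed to between 122 and 1457 TPM and 5 choroid plexus genes to between 4.76 and 6226 TPM. The 7 cerebellar markers summed to 14.6 to 66.2 TPM, and Pcp2 and Gabra6, which define Purkinje and granule cells, were at 0 in 52 and 83 mice. In bulk tissue, fewer cells of a type and less RNA per cell cannot be told apart.

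Over all 200 mice, the plasma membrane pump Atp2b1 (PMCA1) had the highest level, with a median of 446 TPM. It was followed by the endoplasmic reticulum pump Atp2a2 (SERCA2) at 379 TPM, the inositol trisphosphate receptor Itpr1 at 238 TPM and Atp2b2 (PMCA2) at 227 TPM. Atp2c1 (SPCA1) and Atp2b4 (PMCA4) lay at 112 and 107.2 TPM. The ryanodine receptor Ryr2 was at 46.2 TPM and Atp2b3 (PMCA3) at 43.2 TPM, with Ryr3 at 5.64 TPM and Itpr2 at 4.54 TPM. Of neighbours in this order, only Atp2b3 and Ryr3 had ranges over mice that did not overlap. The order of some neighbours was the same in every mouse: Atp2b2 lay above Atp2c1, Atp2b4 above Ryr2 and Atp2b3 above Ryr3 in 200 of 200. Atp2c1 lay above Atp2b4 in 110 of 200 mice, and the order of Itpr1 and Atp2b2 also varied between mice. The other genes of these families were lower, with Atp2a3 at a median of 3.25 TPM, Ryr1 at 1.63 TPM, Itpr3 at 0.972 TPM, Atp2c2 (SPCA2) at 0.424 TPM and Atp2a1 (SERCA1) at 0.254 TPM.

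**Figure D1:**
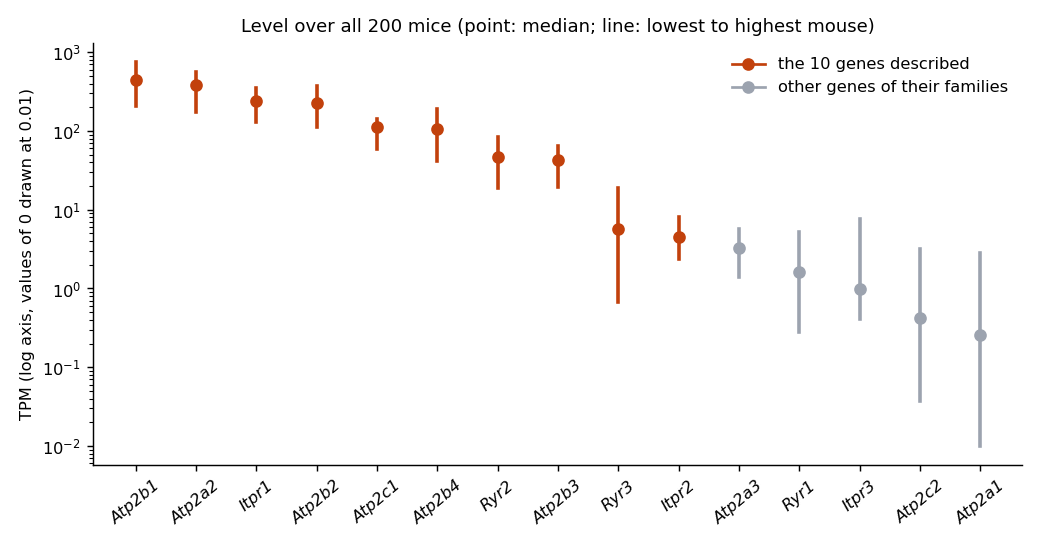
Level of the 10 genes and of 5 other genes of their families in TPM on a log axis, where each point is the median over 200 mice and each line runs from the lowest to the highest mouse. Medians run from 446 TPM for Atp2b1 to 4.54 TPM for Itpr2 among the 10 genes, and all 5 other genes have lower medians.

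Atp2c1 was the 1 gene of the 10 called after CHI at 9 h in the strains tested together. The start of its canonical transcript is shown with those of the other secretory pathway pump, Atp2c2, and of Atp2b1, the most abundant pump. Atp2c1 (ENSMUSG00000032570) lies at chr9:105280738-105404518 on the minus strand of GRCm39 and has 28 exons in its canonical transcript. Atp2c2 (ENSMUSG00000034112) lies at chr8:120426748-120484456 on the plus strand. Each window below holds 250 bases before and 50 bases from the start of the canonical transcript, 5′ to 3′ on the strand of the gene, in GRCm39. For Atp2c1 this start lies inside the gene span, and the outer start of the gene at 105404518 is not covered. Capitals mark TGACG on either strand, a motif bound by CREB and related factors.
Atp2c1: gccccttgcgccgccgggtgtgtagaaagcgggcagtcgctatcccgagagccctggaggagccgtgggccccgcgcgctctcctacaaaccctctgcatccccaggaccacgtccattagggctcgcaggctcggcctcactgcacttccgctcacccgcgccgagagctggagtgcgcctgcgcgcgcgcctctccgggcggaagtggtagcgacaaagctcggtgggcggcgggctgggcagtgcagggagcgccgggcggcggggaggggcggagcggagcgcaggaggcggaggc
Atp2c2: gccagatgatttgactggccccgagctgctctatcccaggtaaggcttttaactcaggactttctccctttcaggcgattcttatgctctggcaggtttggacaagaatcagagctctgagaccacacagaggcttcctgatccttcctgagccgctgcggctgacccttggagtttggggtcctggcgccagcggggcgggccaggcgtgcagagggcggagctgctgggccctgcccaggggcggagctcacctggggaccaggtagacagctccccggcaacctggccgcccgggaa
Atp2b1: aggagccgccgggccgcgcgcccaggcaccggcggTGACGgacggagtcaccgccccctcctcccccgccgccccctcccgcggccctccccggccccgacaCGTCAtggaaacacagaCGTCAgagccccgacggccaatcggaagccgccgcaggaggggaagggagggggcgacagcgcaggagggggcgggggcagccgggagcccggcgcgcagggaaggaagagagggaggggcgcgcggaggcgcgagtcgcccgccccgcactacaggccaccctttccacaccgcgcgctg

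The windows were chr9:105372283-105372582 (minus strand), chr8:120426498-120426797 (plus strand) and chr10:98750026-98750325 (plus strand), with a GC content of 73.3%, 63.0% and 77.7%. TGACG was absent from the Atp2c1 and Atp2c2 windows and occurred 3 times in that of Atp2b1, against 22.6% of 21770 coding gene promoters that hold it at least once. None of the 3 windows held the whole CRE letters TGACGTCA (2.44% of promoters), which contain TGACG, or the E-box CACGTG (7.81% of promoters). These are matches of letters and say nothing of binding.

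Atp2c1, which pumps calcium and manganese into the Golgi, was lower after CHI at 9 h. In C57BL/6J mice, its level ran from 58.9 to 87.6 TPM with a median of 79.5 TPM in the 15 CHI mice, and from 91.2 to 132 TPM with a median of 111.3 TPM in the 6 sham mice. The highest of the 15 CHI mice lay below the lowest of the 6 sham mice, as was so for 0.255% of 14526 genes with a median of at least 1 TPM, and the mean was 68.4% of that of sham mice (76.6 ± 8.88 TPM, SD, n = 15, against 112 ± 18.6 TPM, n = 6). The log2 fold change was -0.59 (SE 0.06). These mice chose the gene, and in this comparison 1 of the 10 genes and 14.1% of all genes were called.

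In nRestore mice, the 6 CHI mice had 67.6 to 93.8 TPM of Atp2c1 with a median of 85.7 TPM, and the 4 sham mice had 97.2, 102.9, 105.04 and 111.8 TPM. All 6 CHI mice lay below the lowest sham mouse here too, as was so for 3.16% of 14863 genes in this smaller set of mice. In gKO mice, CHI levels ran from 67.5 to 122 TPM with a median of 93.2 TPM and sham levels from 90.2 to 120 TPM with a median of 106.7 TPM, and 5 of 13 CHI mice lay below every sham mouse. In eRestore mice, CHI levels ran from 78.3 to 123 TPM with a median of 98.6 TPM and sham levels from 93.9 to 122 TPM with a median of 104.4 TPM, with 5 of 12 CHI mice below every sham mouse. The gKO and eRestore groups therefore overlapped, and in each strain both the lowest and the highest mouse were CHI mice.

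**Figure D2:**
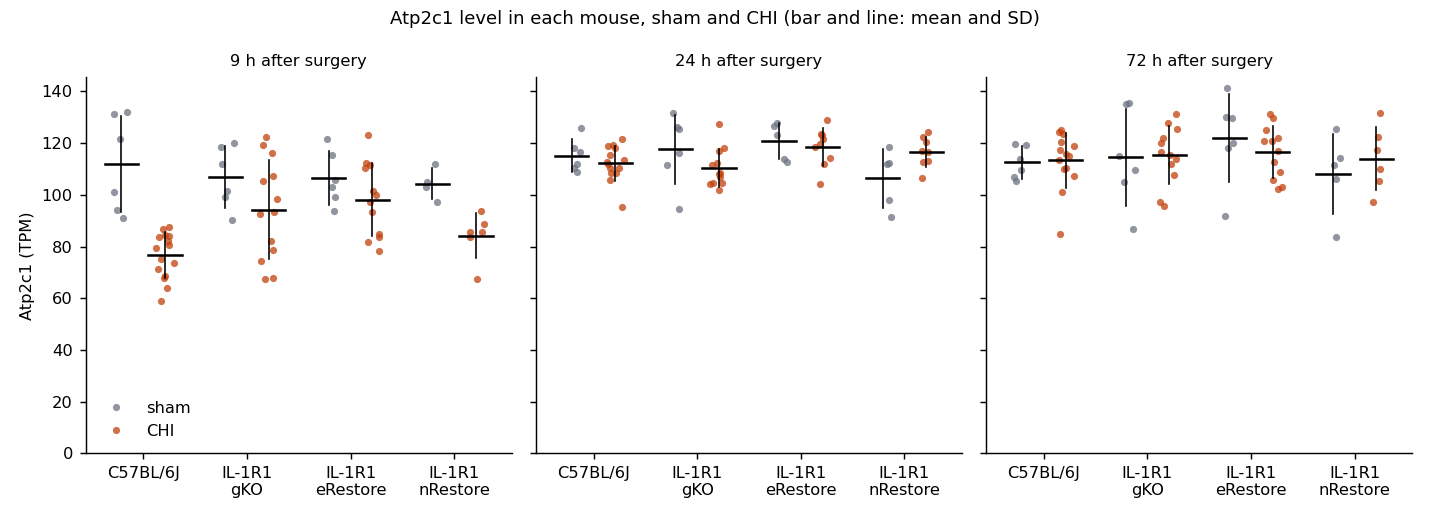
Atp2c1 level (TPM) of each mouse by strain and time, with sham mice in grey and CHI mice in orange, and the mean and SD of each group drawn as a bar and a line. CHI mice sit lower at 9 h, with no overlap in C57BL/6J and nRestore mice, and overlap with sham mice in every strain at 24 and 72 h.

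When the 3 IL-1R1 strains were tested together at 9 h, Atp2c1 fell by 0.22 on the log2 scale (SE 0.04, 95% confidence interval -0.31 to -0.14, adjusted p = 0.000291). It was 1 of 10 genes called there, against 12.3% of 18295 genes tested. By strain, the change was called in eRestore mice (log2 fold change -0.20, SE 0.06, adjusted p = 0.0332), in a comparison that called 7.34% of genes. It was not called in gKO mice (log2 fold change -0.18, SE 0.08, unadjusted p = 0.0377, adjusted p = 0.421) or in nRestore mice (log2 fold change -0.37, SE 0.10, adjusted p = 0.118), where 0.199% and 0.608% of genes were called. The eRestore call was lost when any one of sham mice A097, A098, A175 or A188 was left out, with a log2 fold change of -0.23 to -0.18 over the 6 fits that each left out 1 sham mouse. With offsets for transcript length in DESeq2, the change in eRestore mice was -0.10 (adjusted p = 0.465), while that of the strains together stayed called at -0.18 (adjusted p = 0.0134).

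In every experiment with 9 h mice, the mean Atp2c1 level of CHI mice lay below that of sham mice of the same IL-1R1 strain. This also held for C57BL/6J mice, which chose the gene, so their differences are given as a description. The difference in mean log2 CPM (counts scaled to library size) was -0.54 and -0.67 in the pair of experiments with C57BL/6J mice, between -0.25 and -0.13 in those with gKO mice, -0.14 and -0.31 with eRestore mice and -0.33 with nRestore mice. The CHI effects of strains did not pass a test of their difference at 9 h. It was -0.04 for eRestore minus gKO (95% confidence interval -0.24 to 0.17) and -0.15 for nRestore minus gKO (-0.38 to 0.09), and the intervals leave room for differences as large as the effect. In edgeR tests of strain differences, 0% of genes were called at each time, with 1203 and 439 genes at an unadjusted p under 0.05 at 9 h, and DESeq2 was not run for them. The difference between male and female mice of these strains at 9 h was 0.11 (SE 0.09) and was not called, in a test that called 0% of all genes and found 474 at an unadjusted p under 0.05. The larger fold of C57BL/6J mice was not tested against the other strains, since those mice chose the gene.

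The CHI effect on Atp2c1 was larger at 9 h than later. At 24 and 72 h, CHI and sham mice overlapped in all 4 strains, and the mean level of CHI mice was 93.9% to 110% of that of sham mice. In the 3 IL-1R1 strains together, the log2 fold change was -0.03 (SE 0.03) at 24 h and -0.02 (SE 0.03) at 72 h, neither called. The difference in effect was -0.19 for 9 h minus 24 h (SE 0.05, adjusted p = 0.00903) and -0.21 for 9 h minus 72 h (SE 0.05, adjusted p = 0.00219), in tests that called 4.46% and 5.23% of genes. Atp2c1 was the 1 of 10 genes called in each.

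Atp2c2, the second secretory pathway pump, is no member of the 10 but of the list of other family genes, and it rose at 9 h from a low level. In gKO mice, its level ran from 0.835 to 3.17 TPM with a median of 1.39 TPM in the 13 CHI mice, and from 0.368 to 0.731 TPM with a median of 0.494 TPM in the 6 sham mice. Every CHI mouse lay above every sham mouse, as was so for 0.039% of 17948 genes with a level above 0 in every sham mouse. In eRestore mice, medians were 1.12 TPM after CHI and 0.371 TPM after sham surgery, and 11 of 12 CHI mice lay above all sham mice. In nRestore mice, 5 of 6 CHI mice (median 1.65 TPM) lay above the 4 sham mice, which had 0.246, 0.402, 0.621 and 0.962 TPM. In C57BL/6J mice, medians were 0.917 and 0.431 TPM, with 12 of 15 CHI mice above all sham mice. The estimated counts behind these levels were 19 to 128 in CHI mice and 4 to 31 in sham mice at 9 h.

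In the 3 IL-1R1 strains together, the log2 fold change of Atp2c2 at 9 h was 1.63 (SE 0.17, 95% confidence interval 1.28 to 1.97, adjusted p = 1.59e-09), which placed it 12th of 18295 genes by p-value. It was called in gKO mice (1.55, SE 0.26, adjusted p = 0.0142) and in eRestore mice (1.57, SE 0.26, adjusted p = 0.00132), and in nRestore mice it was 1.64 (SE 0.43, adjusted p = 0.119). Without sham mouse A169 or A164 the gKO call was lost, with adjusted p = 0.0593 and 0.0513. At 24 and 72 h the log2 fold change was 0.13 (SE 0.19) and 0.03 (SE 0.18), and the effect at 9 h was larger by 1.30 (SE 0.26, adjusted p = 0.000284) and 1.56 (SE 0.25, adjusted p = 2.89e-06). In nRestore mice at 24 h, the mean level of CHI mice was 199.3% of that of sham mice (0.501 against 0.251 TPM), with 6 of 8 CHI mice above all sham mice, and in eRestore mice it was 140%, and neither was called by edgeR. In the other strains at 24 h, and in all at 72 h, it was 95.7% to 115% of sham. Experiment and surgery are mixed in part at 24 h in the IL-1R1 strains, as given above for Atp2c1. Differences between strains at 9 h were 0.06 (SE 0.38) and 0.14 (SE 0.44) and were not called. At 9 h, then, the abundant Golgi pump was lower and its scarce paralog higher.

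**Figure D3:**
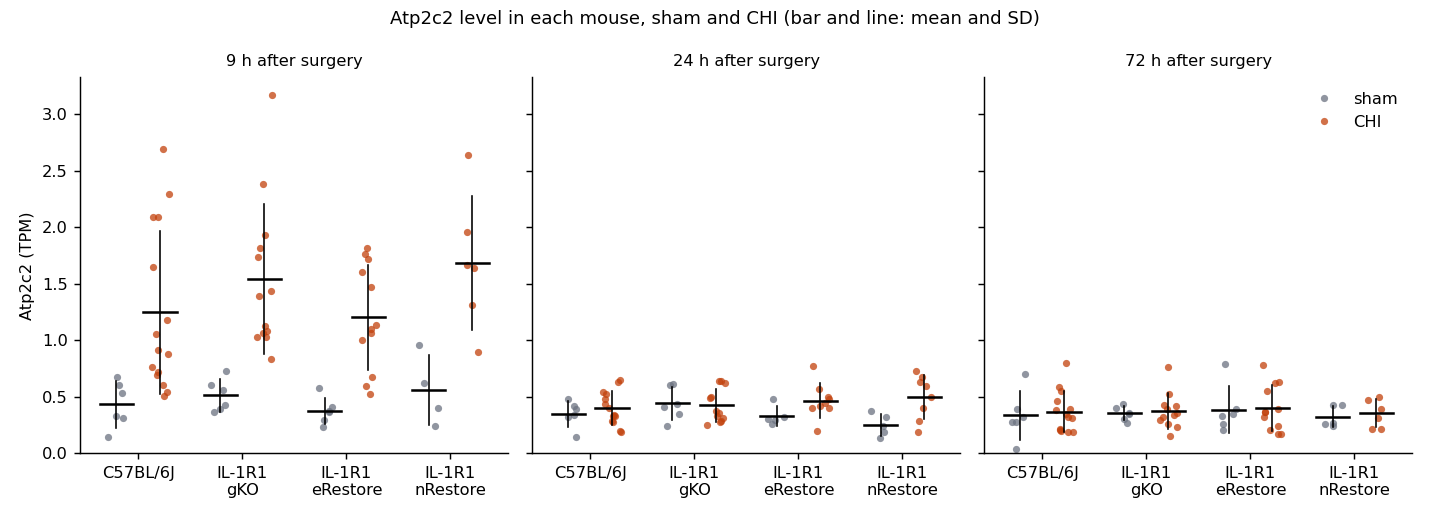
Atp2c2 level (TPM) of each mouse by strain and time, with sham mice in grey and CHI mice in orange, and the mean and SD of each group drawn as a bar and a line. At 9 h the CHI medians of 0.917 to 1.65 TPM stand above the sham medians of 0.371 to 0.511 TPM, and at 24 and 72 h the groups overlap.

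Genes on the opposite strand overlap both pumps, and whether the counting used strand is not given in the sources used here. Aste1, which overlaps Atp2c1, had 2.03 to 13.8 TPM and a log2 fold change of -0.05 (adjusted p = 0.79) in the IL-1R1 strains at 9 h. Meak7, which overlaps Atp2c2, had 3.08 to 14.1 TPM and a log2 fold change of 0.07 (adjusted p = 0.543). At 9 h, 2 of 6 striatal markers were called lower after CHI in the IL-1R1 strains (median of the list -0.50), 2 of 7 cerebellar markers were called higher, 1 of 10 neuronal markers was called lower and 0 of 5 choroid plexus markers were called by edgeR (0 at an unadjusted p under 0.05, 0 by DESeq2). Of the other cell types, 1 of 6 astrocyte markers was called higher and 1 of 5 microglial markers lower, 2 of 6 endothelial markers were called higher and 1 lower, and 0 of 6 oligodendrocyte markers were called by edgeR (0 at an unadjusted p under 0.05, 0 by DESeq2). Of all genes, edgeR called 12.3% in this comparison. With the mean of the striatal, cerebellar or choroid plexus markers as a covariate, Atp2c1 and Atp2c2 stayed called.

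Atp2a2, the pump that loads the endoplasmic reticulum, was not called after CHI in any strain or time. At 9 h its level ran from 305 to 557 TPM over CHI mice and from 310.5 to 527 TPM over sham mice of the 4 strains. In the 3 IL-1R1 strains together the log2 fold change was 0.02 (95% confidence interval -0.10 to 0.15). It was 0.22 in eRestore mice (adjusted p = 0.127) and -0.16 in nRestore mice.

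The plasma membrane pumps were likewise not called by edgeR in any strain or time. In the 3 IL-1R1 strains together at 9 h, the log2 fold change was 0.02 (95% confidence interval -0.07 to 0.11) for Atp2b1, the pump found in nearly all cells, and -0.02 (-0.15 to 0.11) for Atp2b2, a fast pump of neurons. It was -0.03 (-0.14 to 0.07) for Atp2b3 and 0.10 (-0.05 to 0.25) for Atp2b4. In eRestore mice, Atp2b1 had a log2 fold change of 0.19 (adjusted p = 0.0584), Atp2b2 of 0.21 (adjusted p = 0.171) and Atp2b4 of 0.26 (adjusted p = 0.0655), and DESeq2 called Atp2b1 (adjusted p = 0.0183) and Atp2b4 (adjusted p = 0.0325). In nRestore mice the same genes had values of -0.12, -0.14 and -0.14, and that of Atp2b4 changed sign without covariates. Levels of Atp2b1 in eRestore mice were 382 to 499 TPM after CHI and 314 to 434 TPM after sham surgery, and the groups overlapped. In nRestore mice they were 362 to 413 TPM after CHI and 423 to 451 TPM after sham surgery, and all 6 CHI mice lay below the 4 sham mice, as for the 3.16% of genes given above. The difference in CHI effect between eRestore and gKO mice had an unadjusted p of 0.0249 for Atp2b1 (0.23) and of 0.0175 for Atp2b2 (0.34), with an adjusted p of 0.733 for each.

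The release channels were not called after CHI in any strain or time by edgeR. In the 3 IL-1R1 strains together at 9 h, the log2 fold change of Itpr1, the main inositol trisphosphate receptor of neurons, was -0.05 (95% confidence interval -0.14 to 0.03), and that of Itpr2 was -0.02 (-0.12 to 0.08). For Ryr2, the main ryanodine receptor of heart and brain, it was 0.03 (-0.10 to 0.15). Ryr3 had a log2 fold change of -0.17 with an interval of -0.61 to 0.28, the widest of the 10. Apart from Atp2c1, the log2 fold changes of the other 9 genes ran from -0.17 to 0.10 at 9 h, with a median over the 10 genes of -0.02 beside -0.00196 over all genes tested.

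**Figure D4:**
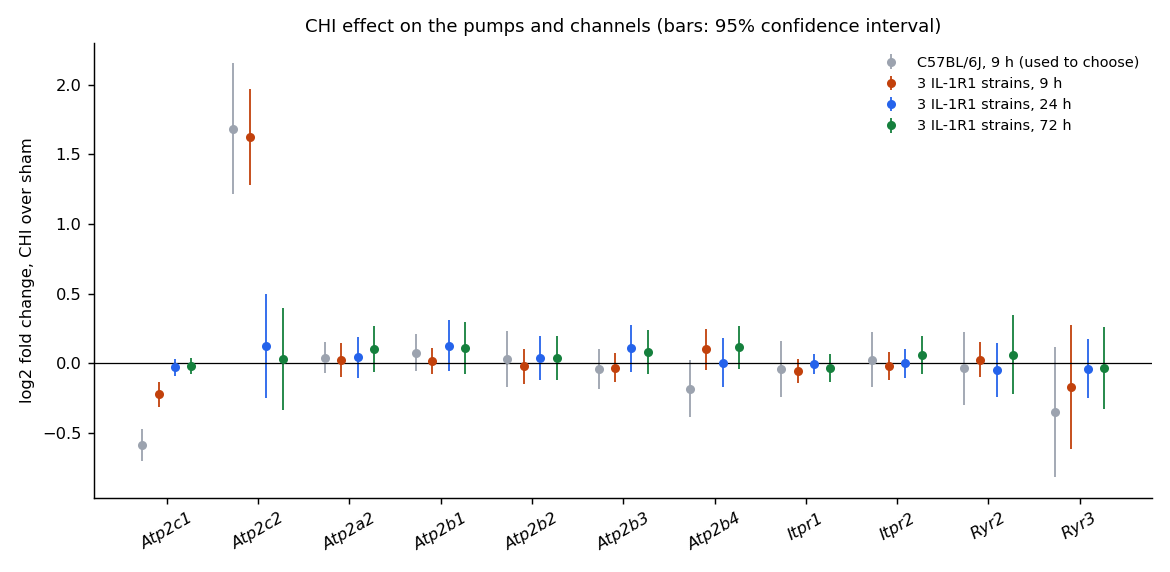
Log2 fold change of CHI over sham for the 10 genes and Atp2c2, with bars for the 95% confidence interval, in C57BL/6J mice at 9 h (grey, the mice that chose the genes) and in the 3 IL-1R1 strains together at 9, 24 and 72 h. Atp2c1 lies below 0 and Atp2c2 above 0 at 9 h, and the intervals of the other genes cross 0.

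Counts of called genes were low outside 9 h. At 9 h, 0 of 10 genes were called by edgeR in gKO mice (1 at an unadjusted p under 0.05, 0 by DESeq2) and in nRestore mice (2 at an unadjusted p under 0.05, 1 by DESeq2), and 1 of 10 in eRestore mice (6 at an unadjusted p under 0.05, 3 by DESeq2). Of all genes at 9 h, edgeR called 0.199% in gKO, 0.608% in nRestore and 7.34% in eRestore mice, and DESeq2 1.31%, 2.38% and 12%. An unadjusted p under 0.05 was found by edgeR for 1784 of 16604, 2207 of 16788 and 4316 of 16652 genes. At 24 h, edgeR and DESeq2 called 0 of 10 in C57BL/6J, gKO, eRestore and nRestore mice. Of all genes, edgeR called 0.404%, 0.0059%, 0% and 0% there and DESeq2 0.845%, 0.743%, 0.333% and 0.0176%, and 3, 1, 2 and 0 of the 10 genes had an unadjusted p under 0.05. At 72 h both tools again called 0 of 10 in these strains. Of all genes, edgeR called 0%, 0%, 0.00605% and 0.0121% there and DESeq2 0.243%, 0%, 0.0726% and 0.0666%, and 0, 0, 1 and 2 of the 10 genes had an unadjusted p under 0.05. In the 3 IL-1R1 strains together both tools called 0 of 10 at 24 h (0.231% of all genes by edgeR, 0.572% by DESeq2) and at 72 h (0.295% and 0.445%), with 0 genes at an unadjusted p under 0.05. Log2 fold changes of the 10 genes ran from -0.05 to 0.13 at 24 h and from -0.03 to 0.12 at 72 h.

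Between sham mice of different times, 4 of the 10 genes were called for 9 h against 24 h and 5 for 9 h against 72 h, near the 34.9% and 31.1% of all genes called there. Ryr3, a ryanodine receptor of low level in most of the brain, had 0.666 to 8.95 TPM with a median of 2.35 TPM over the 68 mice at 9 h. It had 3.76 to 18.7 TPM with a median of 6.87 TPM over 65 mice at 24 h and 2.81 to 15.6 TPM with a median of 7.04 TPM over 67 mice at 72 h. The medians at 9 h lay below those at later times in every strain and surgery, and over all mice the ranges of the times overlapped. In sham mice of the IL-1R1 strains, Ryr3 was lower at 9 h than at 24 h by a log2 difference of -1.10 (SE 0.20, adjusted p = 3.59e-05) and than at 72 h by -1.13 (SE 0.20, adjusted p = 3.23e-05).

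In the same sham mice, Atp2a2 was higher at 9 h than at 24 h by 0.33 (SE 0.10, adjusted p = 0.00772), Atp2b2 by 0.30 (SE 0.09, adjusted p = 0.00614) and Atp2b4 by 0.30 (SE 0.09, adjusted p = 0.00683). Against 72 h, Atp2a2 was higher by 0.34 (adjusted p = 0.00705), Atp2b2 by 0.22 (adjusted p = 0.0493) and Atp2b4 by 0.29 (adjusted p = 0.0115), and Itpr1 was lower by a log2 difference of -0.20 (adjusted p = 0.000613). The call of Atp2b2 against 72 h was lost with other scaling factors (adjusted p = 0.0511), without the filter (adjusted p = 0.0825) and with striatal markers as a covariate (adjusted p = 0.0786), which leaves 4 of 10 or fewer. Atp2c1 was not called between times in sham mice, with log2 differences of -0.06 (95% confidence interval -0.14 to 0.01) and -0.03 (-0.11 to 0.05). Atp2c2 was higher in sham mice at 9 h than at 24 h by 0.51 (adjusted p = 0.046).

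No experiment held both 9 h and later mice. In the paper, which describes the C57BL/6J mice, surgery was done in the morning, and the hour for IL-1R1 mice is not given there. Hours after surgery, experiment and time of day therefore cannot be told apart in sham mice. Age also followed the time point, was left out of that fit and was not tested. Sham mice of the IL-1R1 strains were aged 3.3 to 4.73 months at 9 h, 4.3 to 5.3 at 24 h and 4.6 to 7.67 at 72 h. The 6 striatal markers summed to 122 to 886 TPM at 9 h, 495 to 1457 TPM at 24 h and 618 to 1386 TPM at 72 h, and 6 of 6 were called lower in sham mice at 9 h than at 24 h, with a median log2 difference of -0.96. With the striatal markers as a covariate, the log2 difference of Ryr3 was -0.79 against 24 h (adjusted p = 0.0166) and -0.76 against 72 h (adjusted p = 0.04), and Atp2b4 was no longer called (adjusted p = 0.0934 and 0.161).

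**Figure D5:**
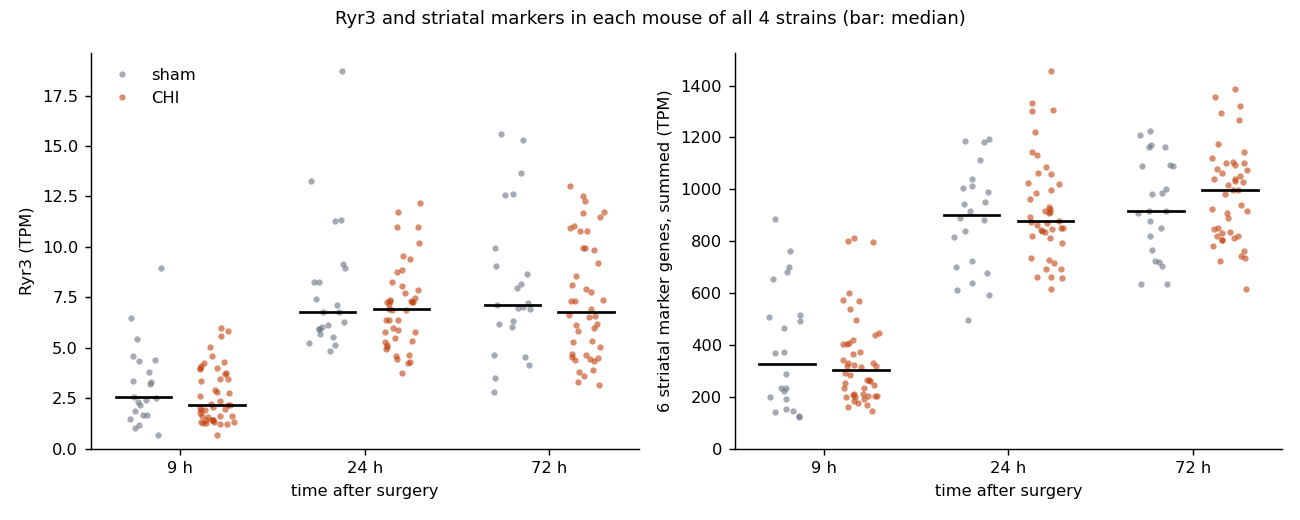
Ryr3 level and the summed level of 6 striatal marker genes (both in TPM) of each mouse of the 4 strains at 9, 24 and 72 h, with sham mice in grey, CHI mice in orange and the median as a bar. Both are lower at 9 h, with medians over all mice of 2.35 TPM for Ryr3 and 303 TPM for the markers, against 6.87 and 889 TPM at 24 h.

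Of 73 other genes of calcium handling in 8 lists, 10 were called in the 3 IL-1R1 strains at 9 h (13.7%), beside the 12.3% of all genes. These lists were chosen with earlier results of these data known. Of the 5 other family genes, Atp2c2 was called higher, and Atp2a1 (0.71, SE 0.28, adjusted p = 0.0912), Itpr3 (-0.25, adjusted p = 0.0651), Ryr1 (-0.18, adjusted p = 0.516) and Atp2a3 (-0.06, adjusted p = 0.708) were not called. Of 6 genes of store-operated entry, 1 was called higher, the plasma membrane channel Orai2 (0.25, SE 0.05, adjusted p = 0.000144), and 0 lower. Of 6 sodium calcium exchangers, 1 was called higher, the potassium-dependent exchanger Slc24a4 (0.53, SE 0.07, adjusted p = 1.91e-07), and 0 lower.

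Of 15 genes of lumenal calcium binding and calcium handling in the endoplasmic reticulum or Golgi, 2 were called lower, the calcium-binding protein Rcn1 (-0.22, adjusted p = 0.0169) and the potassium channel Tmem38b (-0.18, adjusted p = 0.031), and 0 higher. Of 11 junctophilins and partners of the channels or pumps, 2 were called lower, Jph4 (-0.20, adjusted p = 0.00363), which ties the endoplasmic reticulum to the plasma membrane in neurons, and the synaptic scaffold Homer1 (-0.23, adjusted p = 0.00912). Of 13 genes of the Gq and phospholipase C arm, 2 were called higher, the G protein subunit Gna11 (0.09, adjusted p = 0.0431) and Itpka (0.18, adjusted p = 0.00634), which phosphorylates inositol trisphosphate. Of 6 cytosolic buffers and calmodulins, 1 was called lower, the buffer Calb1 (-0.25, SE 0.05, adjusted p = 0.000778). Of 11 genes of mitochondrial calcium uptake, 0 were called by edgeR, with 1 at an unadjusted p under 0.05 and 1 called by DESeq2. Each list's median lay between -0.06 and 0.09. The calls of Gna11, Tmem38b and Rcn1 were each lost under at least one other setting, with adjusted p between 0.0511 and 0.141.

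The likeness of other genes to Atp2c1 was measured as Pearson's r of log2 CPM over 200 mice, with the mean of each group removed, among 20086 genes. The 5 most alike were Caprin1 (r = 0.71), Rpgrip1l (r = 0.69), Dhx29 (r = 0.68), Hltf (r = 0.67) and Ubxn2b (r = 0.65). Values of Atp2c1 with the other 9 genes were lower, between 0.04 and 0.34, while pairs among the other genes reached 0.90 for Atp2a2 and Atp2b2. The values of a mouse come from 1 library and share its depth and composition, and they are given as a description.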

How the data were processed

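RNA of one hemisphere per mouse was prepared as poly(A) bulk libraries, one library per mouse. Per the labels, the authors aligned reads to GRCm39 with STAR and quantified them with Salmon, and they deposited 2 gene tables, one of estimated counts, which need not be whole (10.8% were not), and one of TPM values. The strand setting is not given in the sources used here. The counts, rounded to whole numbers, were put through the quasi-likelihood test of edgeR 4.0.16 under R 4.3.3 (TMM factors, robust fit, sex and age as covariates). A gene was tested if n mice or more had 10 counts, n being the size of the smallest group, with Benjamini-Hochberg adjustment over all genes tested. The strains together were fitted with strain as a term, and differences between strains, times and sexes as interaction terms. SE is the log2 fold change divided by the root of F. Sham mice were compared between times with the same test, with strain and sex as covariates and age left out, since it follows the time point. All mice of a group are separate animals.

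Depth limits low genes such as Atp2c2. Intervals are those of the fitted log2 fold change and do not give the range of single mice. The smallest groups held 4 and 5 mice. The alternatives were DESeq2 1.42.0 without and with gene-length offsets, other scaling factors, no filter, no covariates and experiment in place of age. Each sham mouse was also left out in turn in every group at 9 h and, at later times, in sham groups of 5 mice only. At 9 h, each experiment was also taken alone, and cerebellar markers were used as a covariate. Striatal and choroid plexus markers as covariates, and no covariates for differences between times, were added after seeing the data. The test was tried on simulated counts. Genes named are the 10, the 5 other genes of their families, up to 3 higher and 3 lower called genes of each pathway list with the smallest p, and the 5 genes most alike Atp2c1. The 10 genes and all lists were chosen with earlier results of these data known. Promoter windows were read from the GRCm39 genome at the start of the GENCODE canonical transcript.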

Additional observations from a re-analysis of the deposited data

Results flagged for a closer look

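The CHI effect on Atp2c1 in the 3 IL-1R1 strains differed between times by -0.19 on the log2 scale (9 h minus 24 h) and by -0.21 (9 h minus 72 h), and that on Atp2c2 by 1.30 and 1.56, in tests of the interaction. Experiment and time cannot be told apart there, since no experiment held mice of 9 h and of a later time. At 24 h, some CHI mice of these strains also came from an experiment that held no sham mice of these strains.

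In 8 of 160 tests of the 10 genes in groups of 4 to 10 mice, the highest or lowest mouse stood apart from the rest by Dixon's test. Chance alone gives such a mouse in about 1 of 20 groups. Atp2b3 had a highest mouse of 64.7 TPM among eRestore sham mice at 9 h, the others having 33.5 to 44.5 TPM, and a lowest mouse of 19.3 TPM among eRestore sham mice at 72 h, the others having 43.2 to 56.6 TPM. For Atp2b4, the lowest eRestore CHI mouse at 24 h had 82.8 TPM and the others 106.6 to 124.8 TPM. Itpr2 reached 7.18 TPM in one C57BL/6J sham mouse at 24 h (others 3.82 to 4.44 TPM) and 7.58 TPM in one nRestore sham mouse at 24 h (others 3.66 to 4.53 TPM). Ryr2 reached 56.2 TPM in one C57BL/6J sham mouse at 24 h (others 35.1 to 41.4 TPM). Ryr3 reached 18.7 TPM in one gKO sham mouse at 24 h (others 5.52 to 8.27 TPM) and 12.6 TPM in one nRestore sham mouse at 72 h (others 6.91 to 8.15 TPM).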

How the results depend on the processing

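Atp2c1 in the 3 IL-1R1 strains together at 9 h stayed called under all 9 alternatives, with log2 fold changes of -0.23 to -0.18 and adjusted p of 2.28e-05 to 0.0134, and Atp2c2 likewise with 1.57 to 1.66. By strain, Atp2c1 was called in 6 of 12 alternatives in eRestore mice, among them not without the filter (adjusted p = 0.0653). In nRestore mice it was called with DESeq2 (adjusted p = 0.0277) and without the filter (adjusted p = 0.00357), and in gKO mice under none of 12. The number of the 10 genes called at 9 h was 1 to 2 in C57BL/6J mice when 1 sham mouse was left out (10.4% to 14% of all genes). Without A087 it was 2 (13.4% of all genes), with Atp2b4 at -0.29, given as a description since these mice chose the genes. In eRestore mice at 9 h it was 3 with DESeq2 (12% of all genes) and 0 without the filter (2.95%). It was 0 to 3 there when 1 sham mouse was left out (3.28% to 11.3% of all genes). At 24 h it was 1 in these mice without the filter (Ryr3, beside 0.305% of all genes). In nRestore mice at 9 h it was 1 with DESeq2 (2.38% of all genes) and 1 without the filter (2.7%). Between sham mice at 9 and 72 h it was 3 with striatal markers as a covariate (11.7% of all genes), Atp2b2 then being at adjusted p = 0.0786. Atp2b2 was also lost with other scaling factors (adjusted p = 0.0511) and without the filter (adjusted p = 0.0825).

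Some values that were not called changed sign. Among them, Ryr3 in the strains together and Atp2b4 in nRestore mice were not near 0 in the test reported. In the 3 strains together at 9 h, Atp2a2 was -0.021 and Ryr3 0.051 with striatal markers, Atp2b2 0.014 with cerebellar markers, and Itpr2 0.033 with length offsets and 0.0036 with choroid plexus markers. Atp2b4 in gKO mice was -0.0015 without covariates and -0.037 to 0.082 when one sham mouse was left out. In nRestore mice, Atp2b4 was 0.064 without covariates and 0.062 with experiment in place of age, and Ryr2 was 0.035 and 0.028. In sham mice with striatal markers, Atp2c1 was 0.027 (9 minus 72 h) and Ryr2 was -0.016 (9 minus 24 h). The cause was not tested. Over all genes, calls at 9 h numbered 6 to 218 in gKO mice (33 in the test reported), 554 to 1991 in eRestore mice (1222) and 12 to 806 in nRestore mice (102). At 24 h, DESeq2 called 0.743% of genes in gKO mice (0.0059%), 140 genes in C57BL/6J mice (67) and 55 in eRestore mice (0), and 333 and 93 genes were called in the last 2 without the filter. In C57BL/6J mice at 72 h, DESeq2 called 41 (0). With striatal markers, calls between sham mice numbered 3809 (6524) and 2181 (5814).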
